A study of Mus musculus with 8 samples.

Results

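Retained-intron transcripts are annotated isoforms that keep, unspliced, sequence that other isoforms of the same gene remove as an intron. The members described here are all transcripts that the deposited tables type as retained_intron: 17254 of the 117667 transcripts quantified, or 14.7% of them, in 7444 of 48440 genes. In contrast to an excised intron, a retained intron stays in the polyadenylated RNA. Such transcripts are known either to wait in the nucleus until they are spliced ("detained" introns, typical of genes for splicing factors and CLK kinases) or, once exported, to meet a premature stop codon and be removed by nonsense-mediated decay. In the oocyte, growth is accompanied by transcription and storage of maternal mRNA, the fully grown germinal vesicle falls silent, and the nucleus breaks down at meiotic resumption, after which transcript levels change through storage, polyadenylation and decay without new transcription.

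The study profiled RNA of mouse oocytes and of mouse pluripotent cells under a title on the suppression of microRNAs in oocytes. It holds 4 groups of 2 libraries. GV oocytes, at the germinal vesicle stage of prophase arrest, came from mice primed with 5 units of PMSG 48 h beforehand, into medium with 2 µM milrinone, which holds meiotic arrest. MII oocytes are labelled as the stage after resumption, but their protocol text repeats that of the GV oocytes, so the sources used here do not say how they were matured. Embryonic stem cells (ESC) were grown with 15% serum, LIF and 2i, which are inhibitors named in the labels as PD0325901 and CHIR99021. In vitro epiblast cells (EpiC) were derived from ESCs by withdrawing LIF and 2i 24 h after plating, with collection about 56 h after that. All 4 groups had TRIzol extraction and stranded paired-end TruSeq libraries, and the sources used here do not say whether poly(A) RNA was selected or ribosomal RNA depleted. The labels give no genotype, strain or age. They do not state that the 2 libraries of a group stem from different mice or different cultures, so p-values measure only the spread between these samples, which may be technical.

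The label "retained intron" was checked against transcript structure. Of the members, 16957 matched the GENCODE M21 annotation (GRCm38, the build of the files) by identifier, version and length, and 16885 of these were still typed as retained introns there. In 5264 members an exon spanned at least 1 whole intron (50 bases or more) of another kind of transcript of the gene. These are called whole-intron members. A further 8899 spanned no whole intron but had 100 or more bases that no other transcript of the gene holds, typically an exon that runs on into an intron and ends there. The remaining 2794 had under 100 such own bases, and 297 were not matched. Altogether 1834 members had no base of their own. For these, an estimated level rests on how reads shared with other isoforms are divided, and is uncertain.

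The whole introns held were short. There were 6311 distinct ones, with a median length of 257 bases and quartiles of 117 and 663, against 1351 bases (quartiles 443 and 3536) for the 112404 introns of the coding transcripts of the same genes. Introns under 300 bases made up 54.9% of the retained ones and 19.1% of the comparison. Their ends were of the usual kind: 6204 (98.3%) began with GT and ended with AG, 71 began with GC, and 7 had the AT and AC ends of the minor spliceosome. Of 5493 that lay inside a coding sequence with a known frame, 4871 (88.7%) held a stop codon in that frame. First introns made up 9.1% and last introns 7.5% of those numbered.

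**Figure D1:**
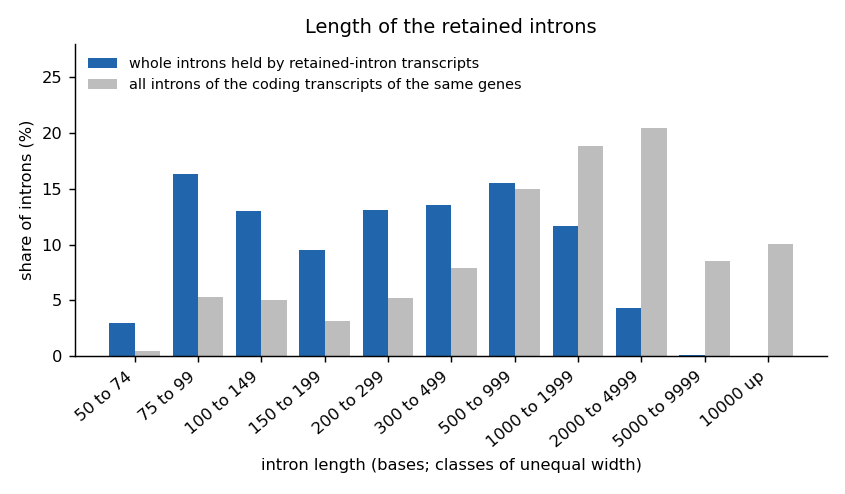
Length of the 6311 whole introns held by retained-intron transcripts (dark bars) and of the 112404 introns of coding transcripts of the same genes (grey bars), as a share of introns in each length class (vertical axis, %). The horizontal axis gives length classes in bases, of unequal width. The retained introns fill the classes under 300 bases (54.9% of them), and the comparison introns the classes above.

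The introns below are shown because the members that hold them carry the differences described later. They are written 5′ to 3′ on the transcribed strand, in GRCm38 coordinates, and were read from the GENCODE transcripts. Capitals mark the splice dinucleotides at both ends and the first stop codon in the frame of the coding sequence they interrupt, which can share its first letter with the donor GT. Gnb4-003 (intron 8 of 10, chr3:32589911-32589996, minus strand) was high in GV and near 0 TPM in MII. Vil1-002 (7 of 19, chr1:74421456-74421560, plus) was at 0 TPM in cultured cells. Hnrnpk-018 (15 of 17, chr13:58393775-58393852, minus) was high in MII. Clk1-003 (1 of 3 held, 6 of 12, chr1:58417180-58417266, minus), Nop56-002 (1 of 7 held, 6 of 11, chr2:130276624-130276706, plus), Phc1-003 (9 of 14, chr6:122322084-122322324, minus) and Srrt-012 (1 of 2 held, 15 of 19, chr5:137296969-137297078, minus) were low in oocytes. H2-M5-003 (1 of 2 held, 2 of 5, chr17:36988781-36988934, minus) fell from ESC to EpiC. Ilf2-001 (11 of 13, chr3:90486913-90486982, plus) was low in MII alone, and Rps20-002 (1 of 3, chr4:3835292-3835483, minus) was the most abundant member in ESC.
Gnb4-003: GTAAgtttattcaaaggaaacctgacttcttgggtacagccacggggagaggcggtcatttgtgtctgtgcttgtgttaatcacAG
Vil1-002: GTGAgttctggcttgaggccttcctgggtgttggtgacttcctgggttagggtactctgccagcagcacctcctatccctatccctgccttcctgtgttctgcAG
Hnrnpk-018: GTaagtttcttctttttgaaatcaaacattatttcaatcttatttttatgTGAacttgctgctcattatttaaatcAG
Clk1-003: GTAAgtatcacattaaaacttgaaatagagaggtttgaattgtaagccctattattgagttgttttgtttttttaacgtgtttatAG
Nop56-002: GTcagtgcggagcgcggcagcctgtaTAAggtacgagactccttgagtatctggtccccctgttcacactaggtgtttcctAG
Phc1-003: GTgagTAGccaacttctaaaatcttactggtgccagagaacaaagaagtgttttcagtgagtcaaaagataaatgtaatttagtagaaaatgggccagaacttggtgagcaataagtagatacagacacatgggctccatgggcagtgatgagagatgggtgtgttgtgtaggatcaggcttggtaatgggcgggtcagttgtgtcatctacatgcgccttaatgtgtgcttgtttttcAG
Srrt-012: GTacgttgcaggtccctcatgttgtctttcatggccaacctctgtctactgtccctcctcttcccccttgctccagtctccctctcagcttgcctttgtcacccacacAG
H2-M5-003: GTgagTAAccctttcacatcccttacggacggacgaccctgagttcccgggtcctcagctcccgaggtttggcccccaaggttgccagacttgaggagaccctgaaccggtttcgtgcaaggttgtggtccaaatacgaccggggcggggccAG
Ilf2-001: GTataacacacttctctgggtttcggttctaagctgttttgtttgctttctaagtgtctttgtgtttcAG
Rps20-002: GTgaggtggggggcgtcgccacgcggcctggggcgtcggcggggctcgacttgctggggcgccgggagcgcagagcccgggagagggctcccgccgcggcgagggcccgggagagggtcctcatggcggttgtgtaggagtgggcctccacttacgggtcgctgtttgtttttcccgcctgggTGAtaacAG
In Gnb4-003, Vil1-002 and Clk1-003 the stop codon began at base 2 of the intron, and in Phc1-003 and H2-M5-003 at base 6. Hnrnpk-018 reached one at base 51, Nop56-002 at base 27 and Rps20-002 only at base 184. The introns of Ilf2-001 and Srrt-012 held none in frame.

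A longer intron is shown by its ends, with 3 exon and 6 intron bases at the donor, 20 intron and 3 exon bases at the acceptor, and the splice dinucleotides in capitals. Mad2l1-003 holds intron 1 of 5 (358 bases, chr6:66535600-66535957, plus strand) and was more abundant in MII than in any other group.
Mad2l1-003 intron 1 donor: tctGTgagt
Mad2l1-003 intron 1 acceptor: tttatttctttcgttttcAGcat

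The libraries held between 47463546 and 196788239 estimated counts each, and replicate 2 of every group was the deeper one. The labels fitted their markers: the summed level of 8 oocyte genes was 23000 to 35200 TPM (kallisto's level per transcript length, on a scale with the same sum in every library) in oocytes and at most 11.1 TPM in cultured cells, Nanog was 954 and 814 TPM in ESC, and Fgf5 was 55.3 and 18.9 TPM in EpiC against at most 0.1 TPM elsewhere. The sum of 12 cumulus and granulosa cell markers was 31.5 and 165 TPM in GV and 50.3 and 49.2 TPM in MII. Of that sum, Cyp19a1 made up 23.4 and 18.3 TPM in GV and 47.4 and 44.5 TPM in MII. Inha, another of them, was 4.66 and 105 TPM in GV and 0.215 and 1.77 TPM in MII. The sum of 8 fibroblast markers was 142 and 63.7 TPM in EpiC, of which Tagln made up 134 and 60.0 TPM, with Col1a1 at 0.511 and 1.04 TPM, and at most 4.08 TPM elsewhere. The part of these cell-type markers in the results was not tested. ESC replicate 2 and EpiC replicate 2 stood apart: Gm42418, a locus that overlaps ribosomal RNA, took 14.7% and 22.7% of their counts, against 0.022% to 3.03% in the other 6 libraries. Counts without both are given beside the main ones. RNA from fewer cells of a type and less RNA per cell cannot be told apart in bulk samples. Fold changes come from edgeR and are scaled by its trimmed mean of M-values (TMM), which moved the log2 ratios of counts by 0.97 for MII against GV, 1.08 for GV against ESC, 2.07 for MII against EpiC and -0.02 for EpiC against ESC. A fitted fold change is therefore higher than the plain TPM ratio wherever oocytes are compared with cultured cells, or MII with GV.

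Retained-intron transcripts made up a smaller share of the RNA in oocytes than in cultured cells. They held 3.21% and 3.48% of TPM in GV, 2.00% and 2.18% in MII, 4.35% and 4.45% in EpiC and 4.66% and 5.48% in ESC. Both MII libraries lay below both GV libraries, and all 4 oocyte libraries below all 4 cultured ones. The mean was 2.72% ± 0.734 (SD, n = 4) in oocytes and 4.74% ± 0.509 (SD, n = 4) in cultured cells, a difference of -2.02 percentage points (exact permutation test, two-sided, p = 0.0286, the smallest that 4 against 4 libraries can give, and 0.0477 after Benjamini-Hochberg adjustment over 5 such comparisons). Without ESC replicate 2 the difference was -1.77 points (exact permutation p = 0.0571), with oocytes and cultured cells still apart. An exact permutation test of 2 against 2 libraries cannot go below p = 0.333, so the groups were not tested in pairs. Of the other kinds of transcript, those typed as nonsense-mediated decay targets took 0.43 points more in oocytes (exact permutation p = 0.0286, adjusted 0.0477). Protein-coding transcripts took 8.09 points more (exact permutation p = 0.314) and processed transcripts 0.098 points less (exact permutation p = 0.886), both within the spread of the libraries.

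As a share of all RNA, the difference lay in the members with a whole intron or with 100 or more own bases. Whole-intron members can have fewer own bases than that. Over all members with 100 or more own bases, with or without a whole intron, the difference was -1.46 points (exact permutation p = 0.0286). Whole-intron members held 0.504% and 0.584% of TPM in GV, 0.301% and 0.336% in MII, 1.61% and 1.51% in EpiC and 1.60% and 1.83% in ESC. The means were 0.431% ± 0.135 in oocytes and 1.64% ± 0.138 in cultured cells (SD, n = 4 each; difference -1.21 points, exact permutation p = 0.0286). Members with no whole intron but 100 or more own bases showed a difference of -0.708 points (exact permutation p = 0.0286). Those with no whole intron and under 100 own bases held 1.29% ± 0.455 in oocytes and 1.29% ± 0.166 in cultured cells (difference -0.003 points, exact permutation p = 0.971). They made up 42.1% to 51.1% of the retained-intron TPM of oocyte libraries and 24.5% to 30.2% of that of cultured ones. The number of members at 1 TPM or more followed the same order, with 1780 and 1772 in GV, 1054 and 1140 in MII, 5271 and 6670 in EpiC and 5475 and 7487 in ESC. Total counts were highest in MII replicate 2 and GV replicate 2. Within ESC, EpiC and MII the deeper replicate 2 had more members at 1 TPM. The part of depth was not tested. In all, 8862 members reached 1 TPM in at least 1 library and 421 in all 8, while 613 had no count in any.

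**Figure D2:**
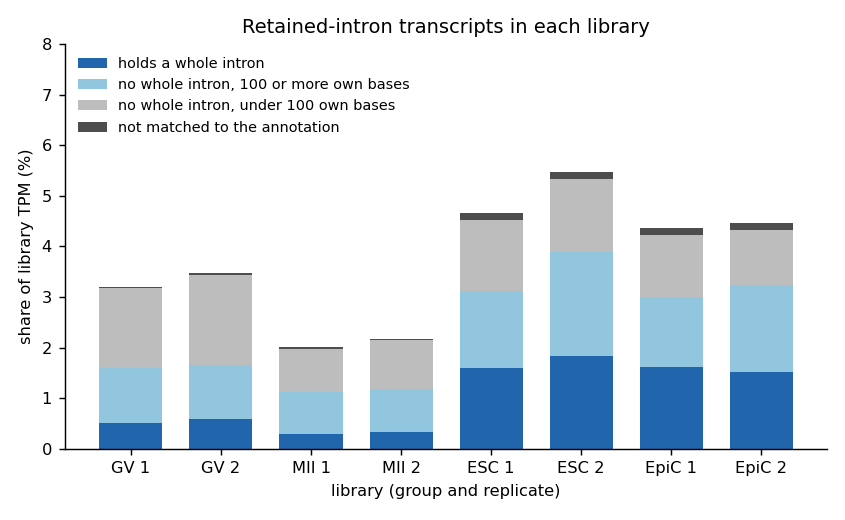
Share of each library's TPM (vertical axis, %) held by retained-intron transcripts in the 8 libraries (horizontal axis), stacked by structure class. The oocyte libraries sum to between 2.00% and 3.48% and the cultured ones to between 4.35% and 5.48%, and the whole-intron class to between 0.301% and 0.584% and between 1.51% and 1.83%.

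The same question was asked within genes, which takes out the level of the gene itself. In the 2139 genes with a member whose total level reached 5 TPM in every library, the median share of the gene's TPM held by its retained-intron transcripts was 0.507% and 0.625% in GV and 0.207% and 0.247% in MII. It was 5.42% and 10.6% in ESC and 4.93% and 10.9% in EpiC. Oocytes averaged 0.396% ± 0.202 and cultured cells 7.98% ± 3.24 (SD, n = 4 each; difference -7.58 points, exact permutation p = 0.0286, adjusted 0.0477). As a share of estimated counts in place of TPM the difference was -3.74 points (exact permutation p = 0.0286). Within the cultured groups, replicate 2 lay above replicate 1 in both ESC and EpiC. Without ESC replicate 2 and EpiC replicate 2 the difference was -4.78 points, still with no overlap, but 4 against 2 libraries cannot pass the threshold (exact permutation p = 0.0667). In whole-intron members alone the medians over 1015 genes were 0.194% and 0.221% in GV, 0.0571% and 0.0813% in MII, 2.68% and 5.25% in EpiC and 2.73% and 5.39% in ESC. Each class differed on this measure, by -3.88 points for whole introns, -4.8 for 100 or more own bases and -4.33 for under 100 own bases (exact permutation p = 0.0286 each). The upper end of the distribution differed less. Genes with at least 50% of their TPM in retained-intron transcripts numbered 84 and 87 in GV, 84 and 84 in MII, 62 and 95 in EpiC and 66 and 91 in ESC. Genes under 1% numbered 1256 and 1200 in GV and 1394 and 1362 in MII, against 411 and 98 in EpiC and 391 and 106 in ESC.

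**Figure D3:**
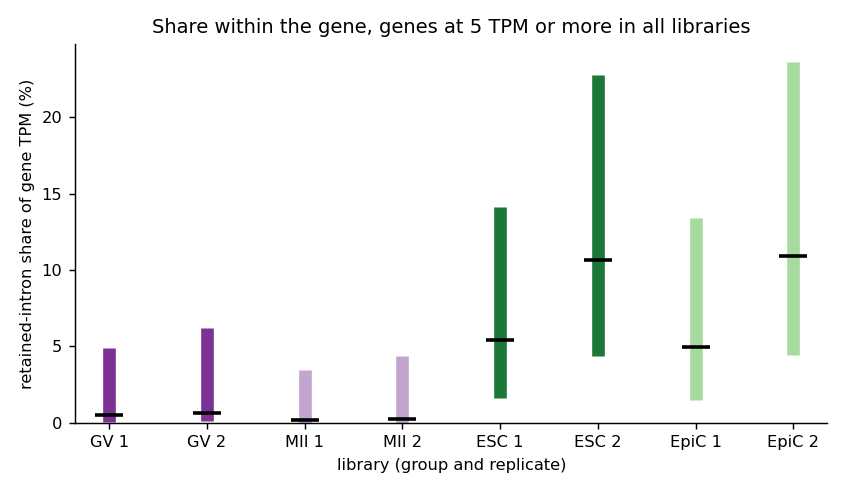
Share of the gene's TPM held by retained-intron transcripts (vertical axis, %) in the 2139 genes at 5 TPM or more in every library, for each of the 8 libraries (horizontal axis). Points are medians and lines the quartiles. Medians lie under 1% in the oocyte libraries and between 4.93% and 10.9% in the cultured ones, with replicate 2 above replicate 1 in ESC and EpiC.

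Gene by gene, the 4 oocyte libraries all lay below the 4 cultured ones in 1418 of these 2139 genes (66.3%) and all above in 77 (3.6%). Without ESC replicate 2 and EpiC replicate 2, they lay below in 1430 genes (66.9%) and above in 142 (6.64%). Both GV libraries lay above both MII libraries in 758 genes (35.4%) and below in 215 (10.1%). For single transcripts, the background is all 22810 transcripts of those genes. Of these, 34.5% had a lower and 12.3% a higher share of their gene's TPM in all oocyte libraries than in all cultured ones. Among the 5664 members, 3590 (63.4%) were lower and 181 (3.2%) higher. By comparison 22.4% of protein-coding transcripts were lower and 18.1% higher. Whole-intron members were lower in 1267 of 1671 cases (75.8%), those with 100 or more own bases in 1998 of 2980 (67.0%) and those with under 100 in 264 of 923 (28.6%). Without the same 2 libraries the background was 38.4% lower and 16.3% higher, and the members 3647 (64.4%) lower and 297 (5.24%) higher. GV was above MII in 1696 members (29.9%; background 23.1%) and below in 404 (7.13%; background 14.1%). ESC was above EpiC in 464 (8.19%; background 9.38%) and below in 264 (4.66%; background 9.32%), both under the background.

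Levels were then tested transcript by transcript with edgeR's quasi-likelihood test over the 69656 transcripts that passed its filter on low counts, 13148 of them members, at a Benjamini-Hochberg adjusted p of 0.05. A member that passed the filter only through the group where it is high had to differ, so the counts are descriptions set beside the background. Between GV and ESC, 3661 members (27.8%) were lower in GV and 686 (5.22%) higher, against 16.7% lower and 19.2% higher among all transcripts. The median log2 fold change was -3.29 for members and -0.69 for all, or -2.57 and -0.55 with transcripts absent from a group set at their bound. Between MII and EpiC, 5226 members (39.7%) were lower in MII and 704 (5.35%) higher, against 27.5% and 18.7% of all transcripts, with medians of -5.24 for members and -1.96 for all (-2.07 and -0.82 at the bounds). Leaving out 1 library lowered these counts. Members lower for GV against ESC numbered 893 without GV replicate 1 (6.21%; background 5.55%), 976 without ESC replicate 2 (7.27%; 6.83%), 1380 without ESC replicate 1 (9.59%; 6.61%) and 1599 without GV replicate 2 (11.6%; 8.81%). For MII against EpiC they numbered 2397 without MII replicate 2 (17.3%; 15.5%), 2901 without EpiC replicate 2 (21.6%; 17.6%), 3295 without MII replicate 1 (22.8%; 16%) and 3734 without EpiC replicate 1 (26%; 17.9%). Among genes at 5 TPM or more in every library, which are expressed in all groups, 1473 of 5163 members were lower and 229 higher in GV than in ESC (background 14.4% and 21% of 20916 transcripts). There 2016 were lower and 312 higher in MII than in EpiC (background 20.6% and 27.7%).

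The excess of lower members in the level test between GV and ESC was not seen without the libraries with most Gm42418. Without ESC replicate 2 and EpiC replicate 2, 250 of 11200 members (2.23%) were lower and 297 (2.65%) higher, against 3.53% and 9.65% of all 64250 transcripts. Lower members outnumbered higher ones only at an unadjusted p under 0.05, and the share of all transcripts at that threshold was not taken. Between MII and EpiC lower members still outnumbered higher ones, with 1007 (8.99%) lower and 443 (3.96%) higher against 9.89% and 13.4% of all, and the share of lower members was then below the background. With both left out, each of those groups has a single library that is assumed to vary like the oocyte groups.

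The test of use within the gene compares a transcript's change with that of the rest of its gene, so a change shared by all transcripts of a gene cancels. It was run with edgeR's diffSpliceDGE over 56755 transcripts, 13058 of them members. In GV against ESC, 2610 members were used less and 102 more, against 9.5% less and 2.39% more among all transcripts. In MII against EpiC, 3273 were used less and 144 more (background 12.8% and 2.73%). In the genes at 5 TPM or more in every library the counts were 1538 less and 38 more for GV against ESC (background 14.4% and 2.71% of 20087) and 2349 less and 51 more for MII against EpiC (background 22.8% and 3.2%). Without ESC replicate 2 and EpiC replicate 2, 429 of 11129 members were used less and 36 more for GV against ESC, and 1104 less and 57 more for MII against EpiC. All transcripts then gave 1143 less and 466 more, and 2716 less and 663 more, of 52775. Leaving out any single library of the compared groups lowered the count of members used less, most of all where an oocyte library was left out. The share of members used less stayed above that of all transcripts in each of these fits, by a small margin without GV replicate 1. The members used more in GV than in ESC were whole-intron members in 13.7% of cases, with a median of 105 own bases. Those used less were whole-intron members in 34.9%, with a median of 395 own bases.

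Within the oocyte, 773 members (5.88%) were lower and 178 (1.35%) higher in MII than in GV, against 10.7% lower and 5.53% higher among all transcripts. Both shares lay below the background. The members' median log2 fold change was -1.02 against -0.73 (both 0.0 at the bounds). In genes at 5 TPM or more in every library 248 were lower and 119 higher (background 7.77% and 12.1%). Within the gene, 155 of the 13058 were used less and 64 more (background 1.27% and 0.493%), and 108 less and 11 more in the genes at 5 TPM (background 1.98% and 0.413%). By limma on the log2 ratio of a transcript to its gene, however, 2612 members were used more and 511 less (20% and 3.91%, against 11.5% and 4.39% of all transcripts), so the balance of use between these stages turned with the method. The calls also rested on single libraries. Lower level calls numbered 403 without GV replicate 1, 168 without GV replicate 2 and 427 without MII replicate 2 (background 5.76%, 3.17% and 7.44%), with 58, 53 and 78 higher ones. Without MII replicate 1 no transcript of any kind passed edgeR's level test (527 members higher and 1942 lower at an unadjusted p under 0.05). The share of all transcripts at that unadjusted threshold was not taken. In use, members called less no longer outnumbered those called more when either MII library was left out. The share of members used less then lay below that of all transcripts. When either GV library was left out, members called less still outnumbered those called more, with a share near that of all transcripts. Between EpiC and ESC, 1 member was higher and 2 lower (background 0.0517% and 0.089%). At an unadjusted p under 0.05, 147 of 13148 members were higher and 222 lower. All 69656 transcripts gave 2858 and 3201 at that threshold, a larger share. DESeq2 gave 47 (0.357%) and 97 (0.738%), against 2.19% and 2.21% of all transcripts. No member changed in use by edgeR's diffSpliceDGE at the adjusted threshold (background 0.0106% and 0.0123%). At an unadjusted p under 0.05, 45 of 13058 members were used more and 58 less. All 56755 transcripts gave 851 and 834 at that threshold, a larger share. In the genes at 5 TPM, 0 were higher and 1 lower in level (background 0.0143% and 0.043%). By the same tests 0 changed in use (background 0.0149% and 0.0199%). Unadjusted, 6 of 5163 members were used more and 20 less, against 193 and 223 of 20087 transcripts. The change from GV to MII differed from that from ESC to EpiC in 66 members upward and 245 downward (background 2.73% and 4.82%). By edgeR 0 members passed that test without ESC replicate 1, without ESC replicate 2, without GV replicate 2 or without MII replicate 1, with 246 to 427 upward and 800 to 1567 downward at an unadjusted p under 0.05. At most 1 transcript of any kind passed it in those fits, and the unadjusted share of all transcripts was not taken there.

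**Figure D4:**
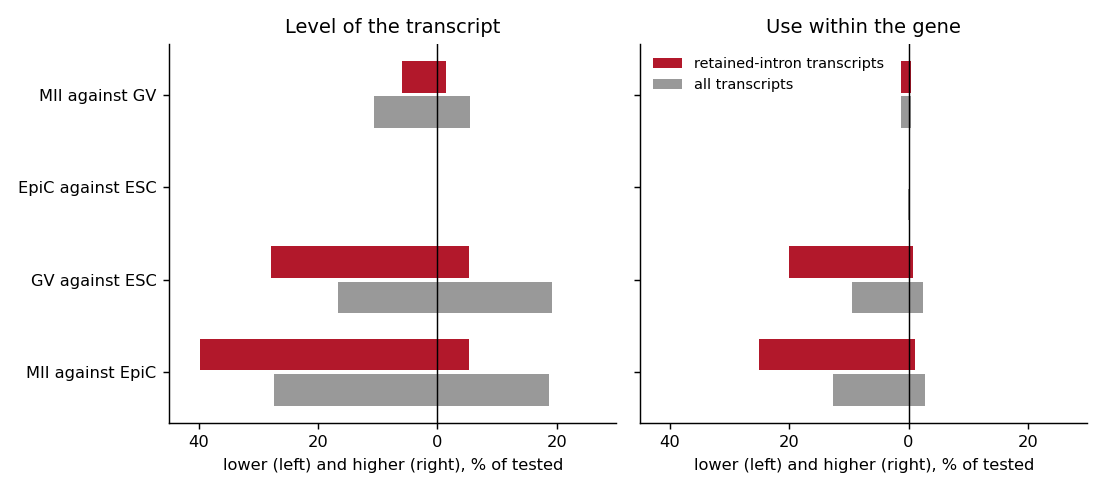
Share of tested transcripts (horizontal axis, %) called lower (left of 0) or higher (right of 0) in each comparison (vertical axis), for retained-intron transcripts and for all transcripts, by level (left panel) and by use within the gene (right panel). In GV against ESC 27.8% of members were lower in level against 16.7% of all transcripts, and the bars for EpiC against ESC are near 0.

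The most abundant members differed between oocytes and cultured cells. Uchl1-002, of the gene for a deubiquitinase abundant in oocytes (chr5:66676892-66687229, no whole intron, 52 own bases), was at 2710 and 4140 TPM in GV and 716 and 598 in MII. It was at 57.4 and 60.6 TPM in ESC and 72.6 and 59.9 in EpiC, so the groups of oocytes lay above all cultured libraries (log2 fold change 6.88, SE 0.44, adjusted p = 0.000366 for GV against ESC). It held 55.0% to 87.8% of its gene's TPM in every library. Mapk3-005, of the gene for the kinase ERK1, was at 412 and 410 TPM in GV, 17.2 and 24.2 in MII, 0.932 and 0.702 in EpiC and 0.0 and 0.126 in ESC, and held 53.1% to 56.5% of its gene in oocytes but at most 3.15% in cultured cells. The use within the gene differed too (adjusted p = 0.00011 for GV against ESC and 0.000596 for MII against EpiC). Sub1-004, of a transcriptional coactivator gene, reached 602 and 464 TPM in MII and 336 and 306 in GV against 71.3 to 121 in cultured cells, at a nearly constant 23.5% to 29.7% of its gene. Timm17a-004, of a mitochondrial import gene, fell from 319 and 351 TPM in GV to 2.47 and 6.89 in MII (log2 fold change -5.39, SE 0.69, adjusted p = 0.00701; lost without MII replicate 1). It has only 4 own bases and kept 67.0% to 76.0% of its gene's TPM in all 8 libraries, and its gene's total went from 477 and 491 to 3.24 and 9.46 TPM.

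Among the leading members of cultured cells were those of genes of ribosomes and nucleoli. Rps20-002, of a ribosomal protein gene of the small subunit, held the 192-base intron printed above and was at 1250 and 800 TPM in ESC and 1150 and 616 in EpiC. It was at 127 and 87.6 TPM in GV and 2.85 and 3.39 in MII, with no overlap between any oocyte and any cultured library. The log2 fold change was -2.24 (SE 0.41, adjusted p = 0.00673) for GV against ESC and -6.39 (SE 0.49, adjusted p = 0.000243) for MII against EpiC. Its share of the gene stayed at 82.5% to 94.5%. Ncl-002, of the nucleolin gene, was at 982 and 479 TPM in ESC, 1250 and 459 in EpiC, 255 and 155 in GV and 33.0 and 20.6 in MII, again with a steady 82.1% to 96.1% of its gene. For both members level and gene total differed together, with little difference in share. Ppia-004, of the gene for cyclophilin A, was at 1040 and 522 TPM in ESC, 964 and 462 in EpiC, 14.4 and 23.8 in GV and 3.86 and 0.0 in MII. Ribosomal protein genes and Ppia have many processed copies in the genome, among which reads can be divided, so these levels are uncertain.

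Some of the abundant oocyte members were at or near 0 TPM in the cultured cells. Vil1-002, of the gene for the actin-bundling protein villin (intron printed above), was at 174 and 186 TPM in GV and 48.9 and 45.2 in MII and at 0.0 TPM in all 4 cultured libraries. On TMM-scaled counts it was at least 1780-fold higher in GV than in ESC and at least 677-fold higher in MII than in EpiC, taking 3 counts per library as the floor. It held 51.2% to 59.2% of its gene in oocytes. Zfp957-002, of a zinc finger gene, was at 119 and 92.3 TPM in GV, 70.5 and 45.2 in MII and 0.0 in all cultured libraries (at least 3750-fold and 2950-fold higher). Fbxw16-002, of an F-box gene, was at 95.3 and 51.4 TPM in GV and 23.7 and 12.2 in MII, and Gm29999-002 at 24.3 and 14.6 in GV and 63.5 and 42.2 in MII, both at 0.0 in cultured cells. U2af1l4-022, of a gene related to the splicing factor U2AF, was at 13.0 and 30.3 TPM in GV, 4.64 and 4.02 in MII and at most 0.0275 in cultured cells. It has no own base, and its gene has 34 transcripts, so its level is uncertain. Cep164-003, of a centriole gene, was at 36.6 and 44.7 TPM in GV, 42.4 and 95.9 in MII, and 0.0, 0.263, 0.0 and 0.0 in ESC and EpiC.

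Among members of genes for the RNA-processing machinery, lower ones outnumbered higher ones in oocytes. The list counts here and below stand beside 27.8% of all tested members and 16.7% of all transcripts lower for GV against ESC, and 39.7% and 27.5% for MII against EpiC, and no test sets a list apart from these. List counts with ESC replicate 2 and EpiC replicate 2 left out stand beside the smaller shares given above for that fit. They are descriptions only, since ESC and EpiC then have a single library each. Of 25 tested members of genes for CLK and related kinases, which phosphorylate splicing factors, 13 were lower and 1 higher for GV against ESC, with 15 lower and 0 higher for MII against EpiC (52% and 60% lower). Together they held 30.2% and 35.6% of their genes' TPM in ESC and 29.3% and 33.4% in EpiC, against 10.8% and 8.31% in GV and 0.5% and 0.57% in MII. Clk1-003 was at 9.91 and 11.2 TPM in ESC, 8.43 and 8.65 in EpiC, 0.34 and 0.399 in GV and 0.0463 and 0.0558 in MII. The groups did not overlap between oocytes and cultured cells (log2 fold change -3.83, SE 0.57, adjusted p = 0.00327 for GV against ESC and -5.7, SE 0.63, adjusted p = 0.000733 for MII against EpiC). Use within the gene was lower as well in both comparisons (adjusted p = 0.00426 and 4.37e-05), the first of which was lost without either GV library. Clk4-010 was at 3.9 and 2.62 TPM in ESC, 3.12 and 3.1 in EpiC and 0.0 in every oocyte library. Among 57 tested members of SR protein genes, which define splice sites, 31 were lower and 0 higher for GV against ESC, with 42 lower and 0 higher for MII against EpiC, with medians of -4.0 and -4.43 at the bounds. Srsf11-005 was at 15.4 and 19.7 TPM in ESC, 16 and 17.9 in EpiC, 0.581 and 0.322 in GV and under 0.001 in MII. Luc7l-004, of a U1 snRNP-associated protein, was at 8.55 and 9.84 TPM in ESC, 13.7 and 9.63 in EpiC, 0.459 and 0.581 in GV and 0.0 in both MII libraries (at least 194-fold lower than in EpiC). Leaving out ESC replicate 2 and EpiC replicate 2, 2 of 23 kinase members and 13 of 50 SR members were lower for GV against ESC, and 4 and 22 for MII against EpiC, with 0 higher. Under the RLE, DESeq2 and both limma scalings, lower members outnumbered higher ones in both comparisons in every list described here and below except the oocyte genes.

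Of 65 tested members of hnRNP genes, whose proteins coat nascent RNA, 31 were lower and 0 higher for GV against ESC, with 37 lower and 2 higher for MII against EpiC. Hnrnpk-018, whose intron is printed above, was higher in MII, at 179 and 143 TPM against 23.6 and 19.8 in GV (log2 fold change 3.59, SE 0.74, adjusted p = 0.0188; lost without MII replicate 1 or either GV library). The cultured libraries spread widely, at 135 and 48.3 TPM in ESC and 133 and 27.7 in EpiC, all below the MII ones. Its call over EpiC (log2 fold change 2.78, SE 0.71, adjusted p = 0.0176) was lost by limma on log2(TPM + 0.1), without EpiC replicate 2 and without either MII library. Of 124 tested members of core spliceosome genes, 51 were lower and 7 higher for GV against ESC, with 83 lower and 6 higher for MII against EpiC (41.1% and 66.9% lower). Their summed share of the genes' TPM was 11% and 11.5% in GV and 18.2% and 15.8% in MII, which overlapped the 11.2% to 26.1% of cultured cells. Snrpb2-005, of the gene for a U2 snRNP protein, was at 328 and 268 TPM in MII, 121 and 96.4 in GV, 101 and 56.3 in ESC and 75.6 and 40.7 in EpiC, at a steady 56.0% to 63.5% of its gene. Of 91 tested members of a list of genes known for detained introns (the list overlaps with others here), 41 were lower for GV against ESC and 64 for MII against EpiC, with 0 higher. Those transcripts held 15.8% to 24.5% of their genes' TPM in cultured cells, 3.66% and 4.94% in GV and 0.94% and 3.21% in MII. For comparison the medians over all transcripts at the bounds were -0.55 and -0.82, and over this list -3.69 and -4.13. With the same 2 libraries left out, the lower members for GV against ESC numbered 7 of 61 in hnRNP genes, 5 of 119 in core spliceosome genes (4 higher) and 8 of 84 in the detained-intron list. For MII against EpiC they numbered 16 (1 higher), 24 (5 higher) and 26.

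Genes that host small nucleolar RNAs in their introns, and ribosomal protein genes, showed the lowest medians. Of 91 tested members of snoRNA host genes, 68 were lower for GV against ESC and 72 for MII against EpiC, with 0 higher and medians of -5.12 and -5.31 at the bounds. Snhg1-003, which holds 8 introns of a noncoding host gene, was at 28.3 and 43.0 TPM in ESC, 36.3 and 28.5 in EpiC, 0.0305 and 0.221 in GV and 0.0 in MII. It was at least 554-fold lower in MII than in EpiC. Nop56-002, of the gene for a box C/D snoRNP protein, was at 9.51 and 21.1 TPM in ESC, 14.3 and 21.7 in EpiC, 0.0 and 0.278 in GV and 0.0 in MII. Gas5, a noncoding host with 20 members, more than any other gene, contributed Gas5-014, at 68.5 and 60.0 TPM in ESC, 100 and 48.9 in EpiC and at most 0.329 in oocytes. It has no own base, so its level is uncertain. As a share of their genes, members of snoRNA hosts held 18.3% and 18.9% in GV, against 21.4% to 29.6% in cultured cells, and 2.4% and 2.43% in MII. Of 135 tested members of ribosomal protein genes, 102 were lower and 2 higher for GV against ESC, with 116 lower and 1 higher for MII against EpiC. In use, 32 (23.7%) and 16 (11.9%) were lower. All members gave 20% and 25.1% lower in use, and all transcripts 9.5% and 12.8%. Their share of the genes' TPM was 6.44% and 5.25% in GV, 2.82% and 4.38% in MII and 4.73% to 5.75% in cultured cells, so in GV it was within or above the range of cultured cells. Rps13-008 was an exception in level, at 331 and 217 TPM in GV against 14.4 and 3.07 in ESC, and has no own base. With those 2 libraries left out, 12 of 89 snoRNA host members and 12 of 133 ribosomal protein members were lower for GV against ESC, and 35 and 52 for MII against EpiC, with 0 higher.

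In genes of RNA surveillance the counts and the summed levels did not always point the same way. Of 26 tested members of nuclear exosome and poly(A) factor genes, 11 were lower and 2 higher for GV against ESC, with 13 lower and 4 higher for MII against EpiC (42.3% and 50% lower). Their summed level was nevertheless higher in MII, at 258 and 342 TPM, than in cultured cells (93.8 to 162 TPM) or GV (93.7 and 104 TPM), and they held 23.1% and 26.4% of their genes' TPM in MII against 11.2% to 22.8% in cultured cells. Most of the MII sum was Zcchc8-002, at 178 and 238 TPM, so the higher sum over cultured cells rested on that member. Zcchc8-002, of the gene for a subunit of the nuclear exosome targeting complex, rose to 178 and 238 TPM in MII from 33.4 and 45.3 in GV (log2 fold change 3.11, SE 0.43, adjusted p = 0.00743; lost without MII replicate 1). It was at 30.8 and 32.2 TPM in ESC and 18.8 and 20.5 in EpiC and held 24.8% to 38.7% of its gene throughout. Of 21 tested members of nonsense-mediated decay and exon junction genes 9 and 13 were lower in the same 2 comparisons, and of 32 tested members of mRNA export genes 10 and 15, with 1 export member higher in MII than in EpiC. For export genes that is 31.2% and 46.9% lower, near the 27.8% and 39.7% of all members. Among 36 tested members of deadenylation, decapping and storage genes the directions were even in GV against ESC (4 lower and 4 higher) and less so in MII against EpiC (11 lower and 5 higher), with smaller shares lower (11.1% and 30.6%) than among all members. Cnot7-011, of a deadenylase gene, was at 222 and 149 TPM in MII, 35.8 and 19.7 in GV, 10.8 and 9.52 in ESC and 8.31 and 8.3 in EpiC, each oocyte library above each cultured one. Edc4-007, of a decapping scaffold gene, was at 2.99 and 11.1 TPM in ESC, 4.95 and 10.5 in EpiC, 0.193 and 0.0665 in GV and 0.0 in MII. With those libraries left out, these lists gave few calls for GV against ESC: 1 lower and 1 higher for exosome and poly(A) factors, 1 lower for decay, 1 lower for export, and 2 higher with 0 lower for deadenylation and storage (2 lower and 3 higher at an unadjusted p under 0.05, by edgeR). In the same order, MII against EpiC gave 2 lower and 2 higher, 6 lower, 3 lower, and 2 lower and 3 higher, so for deadenylation and storage the higher members were then the more numerous.

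Members of genes expressed in the oocyte itself were scarce. Of 10 tested, 4 were higher and 1 lower for GV against ESC, with the same counts for MII against EpiC and a median of 3.43 for GV against ESC. In use, 3 (30%) and 4 (40%) were lower and 0 higher, against 20% and 25.1% of all members and 9.5% and 12.8% of all transcripts lower. These members held 0.69% to 3.86% of their genes' TPM in oocytes and 10.5% to 35.7% in cultured cells. Their summed level was only 14.4 and 17.8 TPM in ESC and 1.25 and 5.17 TPM in EpiC. It was 39.4 to 169 TPM in oocytes. The cultured shares therefore rest on genes at low levels there, so these shares and the calls in use are uncertain. Nlrp5-006, of a gene of the subcortical maternal complex, was at 43.1 and 19.8 TPM in GV, 31.6 and 23.9 in MII and at most 0.133 in cultured cells. Its share of the gene rose from 2.87% and 2.75% in GV to 31.8% and 19.7% in MII (use, adjusted p = 0.0406), while the gene's total went from 1500 and 719 to 99.4 and 121 TPM. That call was lost without any 1 of the 4 oocyte libraries. Zar1-002, of a maternal mRNA storage gene, was at 1.54 and 1.47 TPM in GV and 0.792 and 0.633 in MII, at most 0.152% of its gene. Of 9 tested members of pluripotency and epiblast genes 3 and 4 were lower in oocytes, with 0 higher. Of 45 tested members of cell cycle and meiotic spindle genes 14 were lower and 2 higher for GV against ESC, with 23 lower and 2 higher for MII against EpiC. The first is 31.1%, near the 27.8% of all members, and the second 51.1%. Their summed level was 470 and 481 TPM in MII, above the 262 to 324 TPM of cultured cells and the 240 and 250 TPM of GV. Mad2l1-003, described below, made up most of the MII sum, at 446 and 379 TPM, so the higher sum rested on that member. With ESC replicate 2 and EpiC replicate 2 left out, these counts came to 3 higher and 0 lower of oocyte genes in each comparison, 0 and 1 lower of pluripotency genes, and 2 lower with 1 higher and 6 lower with 1 higher of cell cycle genes. Mad2l1-003, of the gene for the spindle checkpoint protein Mad2, was at 446 and 379 TPM in MII and 128 and 89.9 in GV, against 30.2 and 18.6 in ESC and 44.4 and 17.1 in EpiC. It held 49.4% to 62.6% of its gene in oocytes and 28.4% to 33.3% in cultured cells, a difference in use that did not pass the test (adjusted p = 0.441 and 0.298). Stag3-003, of a meiotic cohesin gene, was at 3.95 to 6.62 TPM in the cultured libraries, 0.0312 and 0.0236 in GV and 0.0 in MII.

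In the list of microRNA biogenesis genes, the title's theme, 6 of 17 genes had members. Of 18 tested members 6 were lower and 0 higher for GV against ESC, with 12 lower and 0 higher for MII against EpiC. The 33.3% for GV against ESC is near the 27.8% of all members, and MII against EpiC had 66.7% against 39.7%. These transcripts held 10.3% to 18.3% of their genes' TPM in cultured cells, 5.33% and 4.64% in GV and 0.84% and 1.27% in MII. Srrt-012, of the gene for the cap-binding partner ARS2, was at 2.88 and 3.96 TPM in ESC, 3.93 and 4.62 in EpiC, 0.0833 and 0.559 in GV and 0.0 in both MII libraries (at least 19.9-fold lower than in EpiC). Ddx5-006, of a helicase that joins the Microprocessor, was at 14.7 and 19.2 TPM in ESC, 11.7 and 15.9 in EpiC, 0.0 and 1.11 in GV and 0.0 and 0.107 in MII. It was lower in MII than in EpiC (log2 fold change -5.98, SE 2.03, adjusted p = 0.0452) and did not pass for GV against ESC (adjusted p = 0.124). The first call was lost without any 1 of the MII and EpiC libraries. Tarbp2-004, of a Dicer partner, was at 1.48 and 1.83 TPM in ESC, 1.24 and 1.54 in EpiC, 0.412 and 0.49 in GV and 0.0168 and 0.0517 in MII. Drosha-003 and Dgcr8-003, of the genes for the Microprocessor core, did not pass the level test in any comparison: Drosha-003 ranged from 0.491 to 1.45 TPM over the 8 libraries and Dgcr8-003 from 0.0277 to 2.32. After removal of ESC replicate 2 and EpiC replicate 2, 0 of 16 biogenesis members were lower for GV against ESC by edgeR (4 at an unadjusted p under 0.05, with 0 higher), and 5 for MII against EpiC.

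For the silencing complex that microRNAs guide, 7 of 17 genes had members. Of 17 tested, 7 were lower and 0 higher for GV against ESC, with 11 lower and 0 higher for MII against EpiC, with medians of -3.88 and -3.16 at the bounds. Tnrc6a-002, of the gene for the GW182 scaffold, was at 1.32 and 2.65 TPM in ESC, 1.96 and 3.53 in EpiC and at most 0.0148 in oocytes (log2 fold change -6.48, SE 1.01, adjusted p = 0.00393 for GV against ESC). Fmr1-013, of the gene for an Argonaute-associated RNA-binding protein, was at 4.71 and 9.08 TPM in ESC, 5.75 and 7.24 in EpiC and 0.0504 to 0.0657 in the oocyte libraries. Ago1-003 was at 1.28 and 1.27 TPM in ESC, 0.901 and 1.16 in EpiC and 0.0 in all 4 oocyte libraries. Wtip-004, of a LIM protein gene linked to silencing, was at 4.41 to 8.79 TPM in cultured cells and at most 0.0985 in oocytes. After the same removal, 2 of 15 were lower for GV against ESC and 3 for MII against EpiC. None of the members of either microRNA list differed between EpiC and ESC by edgeR's test, and neither did those of the other 14 lists.

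Some members fell further than their genes between GV and MII. Gnb4-003, of the gene for a G protein beta subunit, was at 64.9 and 84.0 TPM in GV and at 0.000241 and 0.0 in MII, so it was at least 2180-fold lower. It held 38.8% and 45.1% of its gene in GV, 0.00101% and 0.0% in MII and 27.0% to 46.2% in cultured cells, while the gene kept 23.9 and 23.5 TPM in MII. The isoform with the 86-base intron was near 0 TPM in MII while others of the gene were not (use, adjusted p = 3.08e-06). Ubxn4-004, of a gene of the endoplasmic reticulum, was at 48.9 and 47.1 TPM in GV and 0.0 in both MII libraries, and Rtfdc1-003, of a replication fork gene, at 31.3 and 53.4 and again 0.0. Both were in between in cultured cells, at 5.74 to 8.21 and 10.5 to 19.0 TPM. Igf2bp2-009, of an mRNA-binding protein gene, fell from 120 and 67.2 TPM to 0.0674 and 0.239. It has 8 own bases, so its level is uncertain. Its share of the gene went from 39.5% and 35.1% to 0.0807% and 0.213%. Slc35b4-004, of a nucleotide sugar transporter gene, fell from 55.4 and 33.0 TPM to 0.914 and 0.758 and from 65.3% and 66.5% to 10.8% and 8.93% of its gene, against 55.5% to 57.2% in cultured cells. Ilf2-001, of the gene for the double-stranded RNA-binding partner NF45, fell from 33.2 and 40.8 TPM to 1.97 and 3.09 and from 48.5% and 52.9% to 6.48% and 9.25% of its gene. In share, MII is the group that stands apart for each of these 6.

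Other members were higher in MII than in GV. Focad-008 was at 6.99 and 4.74 TPM in MII, 62.8% and 56.7% of its gene, and at most 0.119 TPM and 0.699% in the other 6 libraries (log2 fold change over GV 6.88, SE 1.21, adjusted p = 0.0119; use, adjusted p = 0.00401, lost without either GV library). Dcaf7-002, of a WD-repeat adaptor gene, was at 26.2 and 13.3 TPM in MII, 0.0 in both GV libraries and at most 0.42 in cultured cells, at least 786-fold higher in MII than in GV. Rasa2-004, of a Ras GTPase-activating protein gene, was at 21.5 and 21 TPM in MII and 0.0189 and 0.0 in GV, and at most 1.27 in cultured cells. Ddhd1-011, of a phospholipase gene, was at 6.72 and 11.3 TPM in MII against 0.22 and 0.159 in GV, and holds 1 whole intron. Rbm15-003, of a gene for an adaptor of RNA methylation, was at 24.1 and 15.1 TPM in MII, 0.669 and 0.71 in GV, 9.93 and 6.72 in ESC and 10.2 and 4.65 in EpiC. Its share was 11.8% and 10.9% in GV and 35.5% to 66.6% in the other 6 libraries, which makes GV the group apart (use in GV against ESC, adjusted p = 0.0428, lost without any 1 of their libraries). As for all level calls between these stages, none of the above passed without MII replicate 1, where no transcript of any kind did.

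Higher use in oocytes was found for a minority, most of it without a whole intron. Cct6a-003, of a chaperonin gene (243 own bases), held 88.9% and 84.1% of its gene in GV and 99.5% and 98.3% in MII, against 14.3% and 28.3% in EpiC and 11.7% and 18.8% in ESC. Its own level was much the same everywhere, at 102 to 168 TPM, while its gene's total was 110 to 141 TPM in oocytes and 583 to 1060 in cultured cells (use, adjusted p = 0.00249 and 0.00124, lost without either ESC library and without EpiC replicate 1). Hdac1-004, of a histone deacetylase gene, showed a like pattern, with 60.4% to 99.3% of its gene in oocytes and 7.89% to 27.9% in cultured cells at 17.3 to 37.0 TPM throughout. Acaca-007, of the gene for acetyl-CoA carboxylase, was at 14.4 and 15.4 TPM in GV and 81.9% and 92.7% of its gene, and at most 0.585 TPM elsewhere, with 25.2% and 51.8% of its gene in MII and at most 5.84% in cultured cells. The opposite extreme was Rpia-002, of a pentose phosphate enzyme gene, at 37.8% and 57.3% of its gene in ESC and 60.9% and 85.0% in EpiC and at most 0.506% in oocytes (use, adjusted p = 0.00121 and 2.59e-05), with the gene's total at 129 and 175 TPM in MII and 21.7 and 44.3 in EpiC. Phc1-003, of a Polycomb gene, held 5.78% to 14.3% of its gene in cultured cells, at 8.85 and 14.4 TPM in ESC and 25 and 62.5 in EpiC, and at most 0.188% in GV and 0.0% in MII.

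Between ESC and EpiC 3 members passed the level test. H2-M5-003, of a nonclassical class I histocompatibility gene with 2 retained introns, was at 48.2 and 45.0 TPM in ESC and 0.745 and 0.364 in EpiC (log2 fold change -6.43, SE 0.56, adjusted p = 0.0394). The whole gene went from 70.8 and 86.1 TPM to 2.07 and 1.07, and the member's share was 68.0% and 52.3% against 36.0% and 34.0%, a difference in use that did not pass (adjusted p = 1.0). Gabarapl2-002, of an autophagy gene, was at 554 and 394 TPM in ESC and 43.6 and 19.2 in EpiC (log2 fold change -3.94, SE 0.45, adjusted p = 0.0442). Stk39-008, of a kinase gene, named after its values were seen, was at 0.0 TPM in both ESC libraries and 1.26 and 0.947 in EpiC, at least 51.2-fold higher. In each of the 3 the groups do not overlap. None of these 3 calls was left when any 1 library of the pair of groups was removed, with the replicate block (151 higher and 236 lower at an unadjusted p under 0.05) or in a fit of these groups alone (207 and 348), both by edgeR. All transcripts then gave at most 1 call in each direction, and their share at the unadjusted threshold was not taken.

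**Figure D5:**
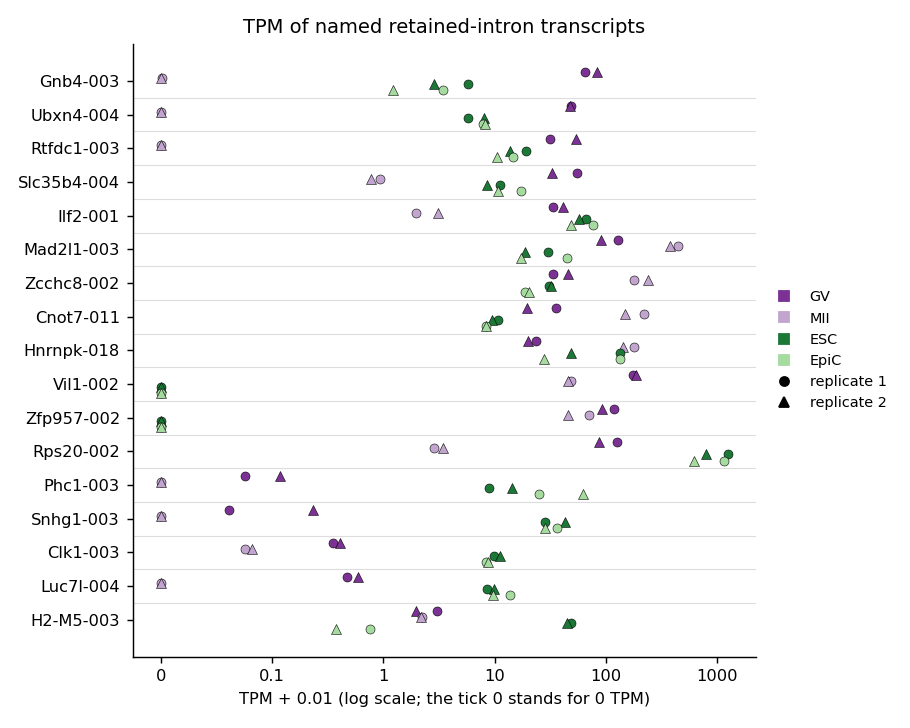
TPM of 17 retained-intron transcripts described in the text (rows) in the 8 libraries; the horizontal axis is logarithmic after adding 0.01 TPM, colour gives the group, and circles and triangles stand for replicates 1 and 2. Gnb4-003, Ubxn4-004 and Rtfdc1-003 are at or near 0 TPM in MII alone, Mad2l1-003, Zcchc8-002 and Cnot7-011 peak in MII, Vil1-002 and Zfp957-002 are at 0 in cultured cells, and the rows from Rps20-002 to Luc7l-004 are low in oocytes.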

How the data were processed

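RNA of 2 GV, 2 MII, 2 ESC and 2 EpiC libraries was quantified per transcript. The authors' deposited tables hold kallisto 0.43 estimated counts for each transcript, made against mm10 per the submitters' processing notes. The TPM values in the same tables were deposited by the authors as kallisto wrote them, scaled for effective length, and the transcript lengths stand beside them. Alignment indices and any trimming are not given in the sources used here. Members were taken from the transcript type field of the deposited names. Estimated counts were rounded and tested with edgeR 4.0.16 (R 4.3.3; filterByExpr, TMM scaling, robust quasi-likelihood, all 4 groups in 1 fit), and use within the gene with its diffSpliceDGE. Benjamini-Hochberg adjustment ran over all transcripts, with calls at 0.05. Shares were compared by exact two-sided permutation over libraries. Adjusted p-values in the report come from these edgeR fits unless another test is named. The scripts were tested on simulated data.

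Total estimated counts per library ran from 47463546 to 196788239. Structures, coordinates and intron sequences came from GENCODE M21 transcripts. A fold against a group at 0 counts used a floor of 3 counts per library on TMM-scaled counts, so it carries the TMM shift as the fitted fold changes do. The members described by name were the 8 most abundant of each group, those with the extreme fold changes (8 each way for MII against GV and GV against ESC, 5 for the other comparisons) among called ones with a group mean of at least 5 TPM and 50 counts, and the 6 extreme changes of share each way in genes at 5 TPM. Added to these were all microRNA biogenesis and silencing complex members at 1 TPM and up to 3 called per direction from each other list. The text describes a selection of them. Members and lists were chosen with earlier results of these data known. Alternatives were DESeq2 1.42.0, RLE scaling, limma 3.58.1 on log2(TPM + 0.1) and log2(TPM + 1), other filters, a replicate block, single groups' fits and leaving out libraries. The removal of ESC replicate 2 with EpiC replicate 2, the restriction to genes at 5 TPM and the split by structure were chosen after seeing the data.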

Additional observations from a re-analysis of the deposited data

Results flagged for a closer look

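By edgeR's test of the difference, 27 members named under the selection rule changed differently from GV to MII than from ESC to EpiC. That rule picks members partly for extreme changes in the same data, so the 27 are a description only. Of all transcripts, 2.73% differed upward and 4.82% downward. The values are differences of log2 fold changes, and for members with a group at 0 counts they depend on the prior count and are no measure of size. The difference was downward for Gnb4-003 (-16.16), Ubxn4-004 (-14.97), Rtfdc1-003 (-14.42), Stk39-008 (-12.04), Luc7l-004 (-10.43), Srsf11-005 (-9.98), Phc1-003 (-9.83), Igf2bp2-009 (-7.15), Stag3-003 (-6.94) and Mapk3-005 (-6.72). Smaller downward differences were those of Slc35b4-004 (-5.53), Timm17a-004 (-5.40), Acaca-007 (-5.08), Rps20-002 (-4.14), Calr-004 (-3.46) and Ilf2-001 (-3.17). It was upward for Dcaf7-002 (15.50), Rasa2-004 (12.78), Ddhd1-011 (7.27), H2-M5-003 (6.97), Phip-005 (5.70), Rbm15-003 (5.68), Zcchc8-002 (3.75), Cnot7-011 (3.70), Gabarapl2-002 (3.13), Hirip3-005 (2.97) and Snrpb2-005 (2.59). For H2-M5-003, Gabarapl2-002 and Stk39-008 it was ESC and EpiC that differed, and for most of the others GV and MII. None of these passed without ESC replicate 1, ESC replicate 2, GV replicate 2 or MII replicate 1, where at most 1 transcript of any kind did.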

How the results depend on the processing

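The lower share in oocytes kept its direction in every setting run. The share of TPM went from -2.019 points to between -2.273 and -1.772 without single libraries (exact permutation p = 0.0571 without ESC replicate 2, and 0.0286 without each other library). It was -1.79 without ESC replicate 2 and EpiC replicate 2 (exact permutation p = 0.133) and -0.003 for members with no whole intron and under 100 own bases. The median share within genes went from -7.579 points to between -8.594 and -6.596, -4.778 without both libraries and -3.742 as a share of estimated counts. Counts of called members depended on the method, and their causes were not tested. For MII against GV (178 higher, 773 lower in level), DESeq2 gave 707 and 1378 (33.9% of calls higher, against 18.7%), RLE 273 higher, the compared groups alone 348 higher (31.0% of calls), limma on log2(TPM + 0.1) 1348 lower, members with at least 100 own bases 116 and 485, genes at 5 TPM 248 lower, removal of both replicate 2 libraries 102 and 178 (36.4% of calls), and single libraries 0 to 78 and 0 to 427. For EpiC against ESC (1 and 2), DESeq2 gave 47 and 97, RLE 0 and 1, the compared groups alone 0 and 0, limma 108 and 182 (0.1) or 163 and 353 (1), no filter 3 and 18, at least 100 own bases 1 lower, genes at 5 TPM 0 and 1, and removal of any library, or of both, 0 and 0. For GV against ESC (686 and 3661), DESeq2 gave 6423 lower, the compared groups alone 5498, limma 7677 (0.1) or 6669 (1), at least 100 own bases 422 higher, genes at 5 TPM 229 and 1473, removal of both 297 and 250 (54.3% of calls higher, against 15.8%), and single libraries 290 to 411 and 893 to 1599. For MII against EpiC (704 and 5226), limma (0.1) gave 8550 lower, at least 100 own bases 451 higher, genes at 5 TPM 312 and 2016, removal of both 443 and 1007, and single libraries 474 to 559 and 2397 to 3734. The difference of changes (66 and 245) gave 398 and 856 by DESeq2 (31.7% of calls higher, against 21.2%) and 0 to 37 and 0 to 222 without single libraries.

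Use within the gene for MII against GV (64 more, 155 less) was 2612 and 511 by limma on the log2 ratio (83.6% of calls higher, against 29.2%), 32 more with at least 100 own bases, 11 more in genes at 5 TPM, 23 and 84 without both libraries, and 8 to 44 and 32 to 104 without single ones. For EpiC against ESC (0 and 0), the compared groups alone and the limma ratio each gave 1 less. For GV against ESC (102 and 2610), the compared groups alone gave 165 and 3927, the limma ratio 988 and 4743 (17.2% against 3.8%), at least 100 own bases 54 more, genes at 5 TPM 38 and 1538, removal of both 36 and 429, and single libraries 27 to 38 and 155 to 1639. For MII against EpiC (144 and 3273), the limma ratio gave 2328 more (38.8% against 4.2%), at least 100 own bases 92 more, genes at 5 TPM 51 more, removal of both 57 and 1104, and single libraries 53 to 98 and 602 to 3124. Beside all transcripts, the share of members lower in level was above the background in 12 of 13 settings for GV against ESC and for MII against EpiC, the exception being removal of both, and in none of 13 for MII against GV (DESeq2: 10.5% against 16.6%) or EpiC against ESC. The share of members higher in level was above it in none of the 13 settings in any comparison (DESeq2 for MII against GV: 5.38% against 12.2%). The share used less was above it in 10 of 10 settings for both oocyte comparisons with cultured cells, and for MII against GV in 2 of 10, with the share used more above it in 4. Among named members, Cct6a-003 reversed in level for MII against EpiC with both limma settings (-0.39 and -0.39, from 1.31). In use, Nlrp5-006 reversed for GV against ESC without ESC replicate 2 (0.17; -4.6 with all libraries and -4.96 without ESC replicate 1) and without both (0.01), and the limma ratio reversed Nop56-002 (0.98) and Stag3-003 (0.23) for MII against EpiC. RLE moved the median of all transcripts to -0.43 for MII against GV (TMM -0.73), -1.29 for GV against ESC (-0.69) and -2.32 for MII against EpiC (-1.96).

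Same-numbered replicates of ESC and EpiC deviated together (r = 0.689), less so GV and MII (0.352), and those of the other pairs of groups had r of 0.074 to 0.144. The labels give no shared origin for a number, but replicate 2 was the deeper library and the one with more Gm42418 in every group. With a replicate block the level counts were 202 and 737, 0 and 0, 749 and 3810, and 743 and 5260, in the order above, 86 and 238 for the difference of changes, and the use counts 77 and 202, 0 and 0, 144 and 3389, and 190 and 3758. Of the calls of named members, 214 were kept and 6 lost with the block. Depth limits the low members: 613 had no count in any library, and 1834 have no own base.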

Other observations

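Calr-004, of the gene for the endoplasmic reticulum chaperone calreticulin, holds a whole intron and was at 259 and 413 TPM in GV, 11.2 and 20.3 in MII, 202 and 192 in EpiC and 257 and 218 in ESC. MII alone was low (edgeR log2 fold change against GV -3.7, SE 0.53, adjusted p = 0.00772; lost without MII replicate 1). Phip-005, of a bromodomain gene, was at 34.7 and 19.7 TPM in MII, 1.39 and 0.207 in GV and 3.49 to 4.03 in cultured cells, so MII alone was high. Hirip3-005, of a histone chaperone gene, was at 356 and 376 TPM in MII, 114 and 120 in GV and 31.5 to 50 in cultured cells, but has no own base and is uncertain.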
